A study of Mus musculus with 84 samples.

Results

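The data described here are the inguinal adipose tissue (IAT) profiles of 6 db/db mice that had received rosiglitazone (RSG) by mouth at 28 µmol/kg for 18 days. They were 6 of the 84 samples of the series. Members were taken by their sample titles, and each was hybridised together with RNA pooled from the IAT of 6 untreated db/db mice. The mice were males of the strain BKS Cg-m+/+ Leprdb/J, which lack a working leptin receptor and become obese and diabetic, and they were 8 weeks old on arrival with 1 week of acclimatisation before dosing. The groups used beside them were IAT of the same strain after RSG at 84 µmol/kg, RSG at 280 µmol/kg and S compound at 28 µmol/kg, with 6 mice each, all set against the same untreated pool. IAT of mice given S compound at 84 and 280 µmol/kg, again 6 each, was not compared. It entered the shared fit and the counts over all 36 treated IAT mice. All of these animals, treated or untreated, were db/db, so no lean mouse enters any value below.

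RSG is a thiazolidinedione and a ligand of the nuclear receptor PPARγ, which pairs with the retinoid X receptor on DNA and drives fat cell differentiation and the genes of lipid uptake and storage. Inguinal fat is a subcutaneous white depot in which thermogenic fat cells can appear among the white cells, for which the uncoupling protein Ucp1 is the defining gene. In rodents the depot lies directly under the skin and holds lymph nodes, blood vessels and, in some animals, mammary epithelium, so that a dissected sample can hold RNA of those tissues too.

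Each mouse was measured on 2 arrays with the dyes exchanged. Values are log2 ratios of the treated mouse over the untreated pool, averaged over both arrays, so that 1 stands for a doubling and a negative value for a lower level in the treated mouse. A gene was called when its group mean differed from 0 in limma at a Benjamini-Hochberg adjusted p under 0.05 over 31443 probes. Each gene is represented by its brightest probe, which gave 15923 genes. Because the pool is a single control RNA, the test measures the spread among treated mice and leaves out the spread among untreated mice. The spread among treated mice was estimated over all 36 treated IAT mice in the shared fit. Each SE, interval and p below therefore rests partly on mice of other groups, unless a smaller fit is named. Such an SE can be smaller or larger than the listed mice alone would give. A printed SD is that of the group's own mice. With only RSG 28 mice in the fit, 9170 probes were called, against 14539 in the shared fit. A median of 72.9% of spots lay well above background in the treated channel and 73.0% in the pool channel of the 12 arrays.

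Mouse 5 stood apart from the rest, and mouse 3 did so to a lesser degree. Over genes, the correlation of log2 ratios between mouse 5 and the other mice lay between 0.07 and 0.51, against 0.77 to 0.90 among mice 1, 2, 4 and 6. Mouse 3 correlated with those 4 mice at 0.54 to 0.69. In mouse 5, 539 genes lay at least 2 log2 units above the median of the other mice, compared with 201 in mouse 3 and between 1 and 28 in mice 1, 2, 4 and 6.

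The genes farthest up in mouse 5 were genes of the cornified layer of skin, named here after their values were seen. Hrnr, which encodes the epidermal protein hornerin, was at 5.65 in mouse 5 and at a median of -5.77 in the others. Lor, encoding loricrin of the cornified envelope, was at 3.97 in mouse 5 and 1.12 in mouse 3, and at a median of -4.17 over the other mice. Serpinb3b was at 6.47 in mouse 5, against a median of -5.34. For these genes the untreated pool lay above mice 1, 2, 4 and 6 and below mouse 5, while mouse 3 was at -0.96 for Hrnr and -3.99 for Serpinb3b. The treated channel was well above background on 5 of 12 arrays for Hrnr and 4 for Serpinb3b, so their low ratios rest in part on signals near background. The 21 epithelial and mammary gland markers tested had a median of 1.56 in mouse 5, -0.02 in mouse 3 and -2.96 to -1.97 in the other 4 mice. The 16 mature adipocyte markers had a median of -0.67 in mouse 5 and -0.10 to 0.11 in the other mice. The part of this skin signal in the results below was not tested beyond leaving mouse 5 out, and values without that mouse are given beside some of the results.

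**Figure D1:**
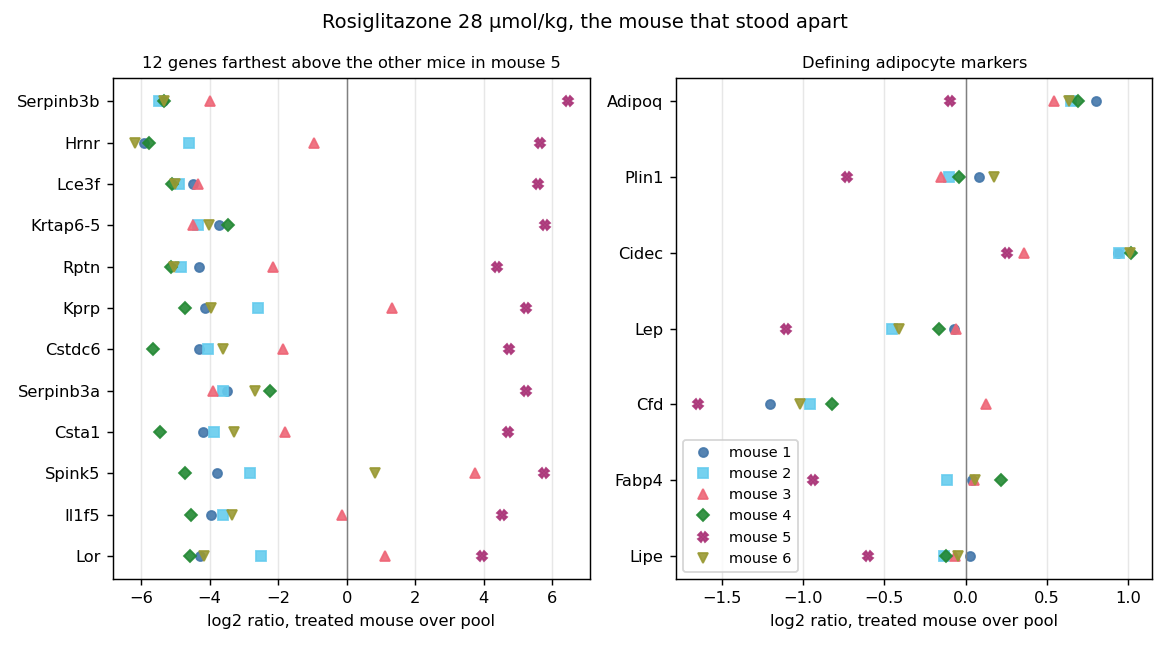
Log2 ratios of each of the 6 RSG 28 µmol/kg mice over the untreated pool (horizontal axis), for the 12 genes that lay farthest above the other mice in mouse 5 (left) and for 7 defining adipocyte markers (right). Each symbol is 1 mouse; mouse 5 lies between 3.97 and 6.47 in the left panel and is the lowest mouse for each marker in the right panel.

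All 7 defining adipocyte markers were well above background in both channels of all 12 arrays, so the label of fat was borne out in every mouse. Cidec, a protein that enlarges lipid droplets, rose to a mean of 0.75 (SD 0.35, n = 6), with mice between 0.26 and 1.02 (limma adjusted p = 3.0e-06). Its spot was saturated in the treated channel on 6 of 12 arrays and in the pool channel on 2, and where a channel is saturated the ratio is not exact. Fabp4 and Lpl were saturated on 6 arrays in each channel. Adipoq, which encodes adiponectin, rose by 0.54 on the log2 scale (adjusted p = 1.8e-05). It was between 0.54 and 0.80 in 5 mice and at -0.10 in mouse 5. Cfd, encoding the complement factor adipsin, fell by 0.92 (SD 0.59; adjusted p = 4.9e-06) and was lower than the pool in all mice but mouse 3, at 0.13. Lep, which encodes leptin, fell by 0.38 with mouse 5 at -1.11, and its mean without that mouse was -0.23. Plin1 (-0.13), Fabp4 (-0.11), Cd36 (-0.05) and Lpl (-0.06), which serve lipid droplets, fatty acid transport and lipoprotein hydrolysis, did not pass the test, and mouse 5 was the lowest mouse for each. Without mouse 5, Fabp4 was at 0.05, Cd36 at 0.09 and Lpl at 0.07, none of them called. The dyes disagreed for Fabp4 and Lpl, which were called higher from the arrays with the mouse in Cy5 (0.38 and 0.27). From those with the mouse in Cy3 they were called lower (-0.61 and -0.38). Lipe, the hormone-sensitive lipase, was at -0.16 and called only with mouse 5 included, at -0.07 without it. Over the 16 adipocyte markers 4 rose and 6 fell, or 6 and 4 without mouse 5. In bulk tissue fewer cells of a type and less RNA per cell cannot be told apart.

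Of the 15923 genes, 7307 were called (45.9%), with 3638 higher (22.8%) and 3669 lower (23%) in RSG 28 fat than in the pool, and the median over all genes was 0.00. Most changes were small. Only 69 called genes were at least 2-fold higher, and 594 were at least 2-fold lower. With the criterion of an unadjusted p under 0.001 and a fold of at least 1.3, 4039 of the 31443 probes passed (12.8%). In the 4 mice scanned on a single day, 5127 probes passed the adjusted criterion, against 14539 (46.2%) with all 6 mice. That subset, chosen after the data were seen, was mice 3, 4, 5 and 6, so it holds both mice that stood apart. Of all 15923 genes, 947 were called higher and 1361 lower in that subset. Without mouse 5 the counts were 4053 and 3455. These background counts have to be kept beside every list count of the same fit that follows. With all 6 mice, a list with about 23% of its genes called in each direction does not stand out from all genes. All list counts are given as genes tested, called higher and called lower.

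Genes that carry out fatty acid synthesis were raised as a group. Of 20 genes tested, 15 rose and 1 fell, with a median of 0.60, and without mouse 5 the counts were 15 and 0. Fasn, encoding fatty acid synthase, was at 2.04, 1.13, 0.15, 1.65, 0.95 and 1.61 in mice 1 to 6, a mean of 1.26 (SE 0.19; adjusted p = 3.1e-06) or 2.39-fold. Its level was above the pool in every mouse, but mouse 3 was close to it. The treated channel of Fasn was saturated on 5 of 12 arrays, so these ratios are not exact. Slc25a1, the mitochondrial carrier that exports citrate for synthesis in the cytosol, rose by a mean of 0.96 (lowest 0.20, highest 1.48). Acaca, encoding the carboxylase of the first committed step, rose by 0.66, and Mcat, of mitochondrial fatty acid synthesis, by 0.32. Elovl3, an elongase of very long chains that is high in brown fat, rose by 1.61 (0.65 to 2.16; adjusted p = 1.4e-11). Scd1, which makes monounsaturated fatty acids, was the gene of this list that fell, at -0.38 (adjusted p = 0.015), and its call was lost without mouse 5 (-0.29, adjusted p = 0.07) or without mouse 3 (-0.32, adjusted p = 0.06). The Scd1 spot was saturated on 1 array in the treated channel and on 4 in the pool channel. Insig1, which restrains sterol synthesis, rose by 0.86, while the cholesterol list as a whole had 5 genes higher and 3 lower of 19, or 3 and 5 without mouse 5.

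Supply of reducing power and of glycerol moved in the same direction. Of 12 genes of the pentose phosphate pathway and NADPH supply, 7 rose and 1 fell. Me1, the cytosolic malic enzyme, rose by 0.91 (0.16 to 1.28) and the pathway's transketolase Tkt and transaldolase Taldo1 rose by 0.59 and 0.39, whereas H6pd, which works in the endoplasmic reticulum, fell by 0.33. Of 18 genes of triglyceride synthesis and glycerol supply, 11 rose and none fell, with a median of 0.27. Gpd1, which turns a glycolytic intermediate into glycerol phosphate, was at 1.53, 1.12, 0.21, 1.49, 0.80 and 1.44 in mice 1 to 6. Its mean was 1.10 (SE 0.13; adjusted p = 4.4e-08), with the treated channel saturated on 4 of 12 arrays. Gk, glycerol kinase, rose by 0.87 (0.12 to 1.17) and Pcx, pyruvate carboxylase, by 0.64. Aqp7, the channel through which glycerol crosses the fat cell membrane, rose by 0.72 (0.27 to 1.05; adjusted p = 6.9e-08).

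**Figure D2:**
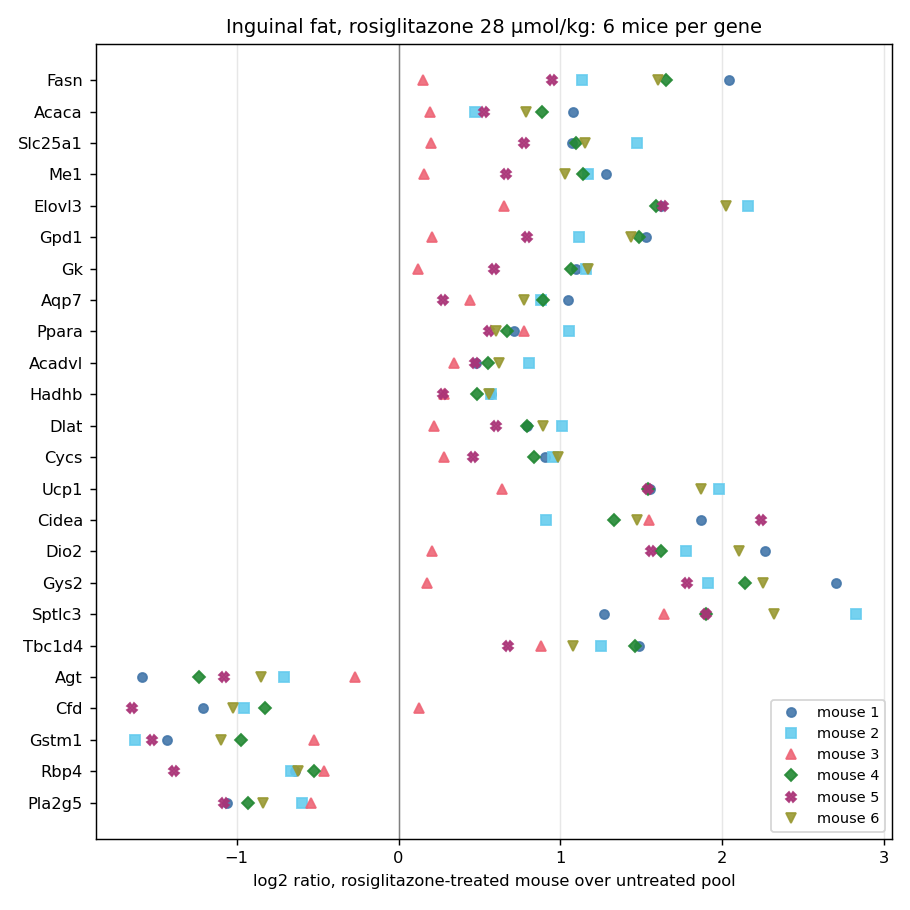
Log2 ratio over the untreated pool (horizontal axis) of each of the 6 RSG 28 µmol/kg mice for 24 genes of lipid synthesis, oxidation, thermogenesis and secretion (rows). Each symbol is 1 mouse; mouse 3 is the lowest for Fasn at 0.15, Gpd1 at 0.21 and Ucp1 at 0.64, while Sptlc3 is above 1.27 in every mouse but mouse 1, which is at that value.

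Mouse 3 showed the smallest rise for most of these genes. In 6 lists of lipid synthesis and mitochondrial oxidation, 106 genes were called higher, and mouse 3 was the lowest mouse for 68 of them and mouse 5 for 28. For fatty acid synthesis the list median was 1.06, 0.49, 0.17, 0.82, 0.55 and 0.74 in mice 1 to 6. These figures describe the mice, and no test was made on them.

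Uptake and storage genes were less uniform. Of 19 genes that take up or activate fatty acids, 5 rose and 4 fell with a median of -0.04. Fabp5, a cytosolic fatty acid carrier, rose by 0.66 (0.16 to 1.12) and Slc27a4, a fatty acid transporter, by 0.38, whereas Acsl3, which activates fatty acids, fell by 0.51 and was lower in all 6 mice (adjusted p = 2.5e-08). Of 14 lipid droplet genes 5 rose and 3 fell. Plin4, a coat protein of nascent droplets, fell by 0.58 with mouse 5 at -1.35 and the other mice between -0.53 and -0.30. Among 18 genes of lipolysis and its control, 6 rose and 3 fell, or 9 and 1 without mouse 5. Hcar2, a receptor that restrains lipolysis, rose by 0.85 (0.57 to 1.28) and Abhd5, the co-activator of adipose triglyceride lipase, by 0.48. Angptl4, an inhibitor of lipoprotein lipase, was at -0.32 (adjusted p = 0.014), a call that was lost without mouse 5 (-0.22, adjusted p = 0.10) and from the arrays with the mouse in Cy5 alone (-0.04).

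Most genes of fatty acid oxidation rose as well. Of 21 genes of mitochondrial beta-oxidation 16 rose and 1 fell with a median of 0.28, and of 23 peroxisomal genes 14 rose and none fell, with a median of 0.25. In the 4 mice scanned on a single day 8 and 5 of these genes were called higher and none lower, at medians of 0.25 and 0.19. Acadvl, the dehydrogenase of very long chains, was at 0.48, 0.81, 0.34, 0.55, 0.48 and 0.62 in mice 1 to 6, a mean of 0.55 (SE 0.07; adjusted p = 7.0e-08) or 1.46-fold. Hadhb, a subunit of the trifunctional protein, rose by 0.46. Hadha, its partner subunit, rose by 0.47 on its brightest probe, but another probe for the gene was called lower. Pex11a, which makes peroxisomes divide, rose by 0.73 (0.50 to 1.01), and Acaa1b, a peroxisomal thiolase, by 0.58. Pdk4, the kinase that shuts pyruvate dehydrogenase, ranged from -1.78 to 0.58. Its mean of -0.82 was called (adjusted p = 0.014), but not without mouse 1 (-0.63, adjusted p = 0.09), mouse 4 (-0.72, adjusted p = 0.06) or mouse 6 (-0.70, adjusted p = 0.06).

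The mitochondrial lists moved together. Of 29 genes of the citrate cycle and pyruvate dehydrogenase 20 rose and 4 fell, of 37 complex I genes 23 rose and none fell, and of 40 genes of complexes III to V 21 rose and 2 fell. Their medians were 0.23, 0.17 and 0.16. In the 4 mice scanned on a single day fewer passed the test, with 12, 5 and 10 of these genes called higher and none lower, at medians of 0.22, 0.12 and 0.11. Over all 15923 genes that fit called 947 higher and 1361 lower. Cycs, encoding cytochrome c, rose by 0.74 (0.28 to 0.99; adjusted p = 3.9e-08). Dlat and Pdhb, subunits of pyruvate dehydrogenase, rose by 0.72 and 0.68, and Ndufb5 and Cox6b1, of complexes I and IV, by 0.39 and 0.44. Hspd1 and Hspe1, the chaperonin pair of the mitochondrial matrix, rose by 0.44 and 0.37, and 20 of the 31 genes of mitochondrial biogenesis and import rose while 3 fell, or 8 and 1 in the mice of a single scan day. Some known regulators of these genes did not rise. Nrf1, a transcription factor for respiratory genes, fell by 0.18, Ppargc1a, the coactivator PGC-1α, fell by 0.35 (-0.72 to -0.08; adjusted p = 0.0071), and Ppargc1b, its relative, was at -0.07 (adjusted p = 0.44). Among 23 genes of branched-chain amino acid breakdown 13 rose and 2 fell, with Mccc1 at 0.54 and Hibch at 0.46 for 2 enzymes of leucine and valine breakdown, and Ivd, of leucine breakdown, at -0.16. The 33 genes that the study itself names for fat had 26 higher and 2 lower, which is not independent evidence because they were picked on these samples.

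Thermogenic genes gave some of the largest rises. Ucp1 was at 1.55, 1.98, 0.64, 1.54, 1.54 and 1.87 in mice 1 to 6. Its mean of 1.52 (SE 0.12; adjusted p = 1.8e-11) corresponds to 2.87-fold, and mouse 3 lay well below the other mice. Cidea, a lipid droplet protein abundant in brown fat, rose by 1.56 (0.91 to 2.24; adjusted p = 6.9e-07), and Dio2, the deiodinase that activates thyroid hormone, by 1.59 (0.20 to 2.27; adjusted p = 2.1e-05). Of the 19 thermogenic and brown-fat genes 7 rose and 3 fell, with a median of 0.24. Prdm16, a regulator of brown fat identity, rose by 0.35. Tbx1, a marker given for beige fat cells, fell by 1.22 and ranged from -2.03 to 0.16, with mouse 5 the only mouse above the pool. Fgf21, a secreted factor induced by PPAR ligands, was at 0.24 (adjusted p = 0.16). Of 20 PPAR receptors and coregulators 4 rose and 4 fell. Ppara, the PPAR of oxidative tissues, rose by 0.73 (0.56 to 1.05; adjusted p = 1.5e-07), and Pparg itself was at 0.09 (-0.46 to 0.47; adjusted p = 0.45).

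The promoters of 3 of the genes that rose are printed because they hold a motif of a factor known in fat cells. They run from 250 bases before to 50 after the RefSeq start (GRCm38.p6), both strands were searched, and the capitals mark the match. Aqp7 (chr4:41047913-41048212, minus strand) holds the half-sites AGGNNA and AGGTCA with 1 base of any kind between them, a direct repeat of the sort PPARγ and the retinoid X receptor bind, found on the opposite strand. It was present in 0.204% of 32851 promoters. Dio2 (chr12:90738989-90739288, minus strand) holds TGACGTCA, the cAMP response element, present in 1.79%. Slc25a1 (chr16:17928170-17928469, minus strand) holds CACGTG, an E-box, present in 7.15%. A match is a description, not a site or a cause. Among genes tested, 6 of 36 with the first motif, 115 of 380 with the second and 333 of 1334 with the last were called higher, against 2907 of 12613 genes with a promoter in the table.
Aqp7: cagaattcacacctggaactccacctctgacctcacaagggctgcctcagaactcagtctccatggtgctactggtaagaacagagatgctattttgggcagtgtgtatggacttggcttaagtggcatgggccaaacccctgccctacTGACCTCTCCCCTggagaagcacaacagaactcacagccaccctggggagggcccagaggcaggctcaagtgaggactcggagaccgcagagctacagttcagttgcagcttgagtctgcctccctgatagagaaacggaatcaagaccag
Dio2: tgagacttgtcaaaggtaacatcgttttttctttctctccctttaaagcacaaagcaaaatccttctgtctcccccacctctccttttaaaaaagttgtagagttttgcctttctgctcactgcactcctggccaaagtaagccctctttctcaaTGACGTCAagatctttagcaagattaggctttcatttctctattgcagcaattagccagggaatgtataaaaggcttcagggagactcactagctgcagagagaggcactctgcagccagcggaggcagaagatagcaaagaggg
Slc25a1: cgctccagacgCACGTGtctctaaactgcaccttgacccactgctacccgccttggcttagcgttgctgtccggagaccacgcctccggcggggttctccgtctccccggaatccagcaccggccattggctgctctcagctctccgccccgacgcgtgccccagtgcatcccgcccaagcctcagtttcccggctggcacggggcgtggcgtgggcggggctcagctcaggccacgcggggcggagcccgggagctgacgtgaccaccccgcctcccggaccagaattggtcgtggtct

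The 15 genes with the largest rise that were higher in all 6 mice included several outside these pathways. Sptlc3, a subunit of serine palmitoyltransferase that starts sphingolipid synthesis, was highest. It stood at 1.27, 2.83, 1.64, 1.90, 1.90 and 2.32 in mice 1 to 6, a mean of 1.98 (SE 0.14; adjusted p = 6.4e-13) or 3.93-fold. The rest of the sphingolipid list did not share this, with 7 of 27 genes higher, 9 lower and a median of -0.03. Degs2, a desaturase of the pathway, was at -4.28. Gys2, the glycogen synthase of liver, rose by 1.83 (0.18 to 2.70), with mouse 3 far below the other mice. Gprin3, a G protein regulator of neurite growth, rose by 1.81 with a narrow spread (1.48 to 2.08). Cxcl10, an interferon-induced chemokine, rose by 1.72 (0.26 to 2.50) and Ubd, a ubiquitin-like modifier, by 1.68 (0.91 to 2.26).

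Others among the 15 were less even or were limited by background. Clvs1 and Sowahd were not well above background in the pool on any of the 12 arrays, so their levels in RSG 28 fat were at least 1.37-fold and at least 1.20-fold higher. Their treated channels were well above background on 6 and 7 of 12 arrays, so both bounds rest in part on signals near background. These bounds set the mean treated signal against the pool's own signal or the lowest detected signal, whichever was higher. Beforehand, the mean log intensity of both channels was quantile-scaled across the 12 arrays, which left the ratio of the channels unchanged. Acot5, a peroxisomal thioesterase, was at 1.64 but ranged from 0.05 to 3.87, and it lost its call without mouse 5 (1.20, adjusted p = 0.07). Moxd1, a monooxygenase-like protein, rose by 1.42 (0.09 to 2.76). Gigyf2 and Ckap5, which act in translation control and in microtubule growth, rose by 1.52 and 1.46, and they stood at 1.35 and 1.28 after RSG 84, 1.36 and 1.25 after RSG 280 and 1.31 and 1.33 after S compound 28. Of the 2 probes tested for Ckap5, only 1 was called.

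The largest differences in the data were downward and belonged to genes of gut and other epithelia. B3galt5, a glycosyltransferase of epithelial cells, was between -6.82 and -6.25 in the 6 mice, with a mean of -6.50 (SE 0.48; adjusted p = 1.1e-12). Its treated channel was well above background on 6 of 12 arrays, so no exact fold is given. Clca1, secreted with mucus by goblet cells, was between -6.41 and -6.04, with a mean of -6.26. Mptx1 (-6.12), a pentraxin of the mucosa, Lypd8 (-5.51), a protein of the colon surface, Agr2 (-5.28), which folds mucins, Foxa2 (-5.41), a transcription factor of endoderm, and Sult1b1 (-5.36), a sulfotransferase of gut and liver, were lowered likewise. Lrrc19 was not well above background in any of the 12 treated channels and was at least 21.0-fold lower, and 2310057J18Rik was above it in 1 of them. The treated channel was well above background on 5 of 12 arrays for Sult1b1, 7 for Sbp, 8 for Foxa2 and Crisp1, 9 for Adamdec1, 10 for Mptx1 and 11 for Sval1, so that their log2 ratios rest in part on signals near background. The others of the 15 lowest genes were Crisp1 (-6.03), Sval1 (-5.89), Dcpp3 (-5.76), Dcpp1 (-5.62), Adamdec1 (-5.44) and Sbp (-5.38). Dcpp1 and Dcpp3 are near-identical copies and may share signal.

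Many of these low values, though not all, were also found in the other groups that share the pool. Clca1 was at -6.53 after RSG 84, -6.54 after RSG 280 and -6.41 after S compound 28, and B3galt5 at -6.96, -6.80 and -6.28. Crisp1 was an exception, at a mean of -2.38 after RSG 280 with mice between -6.56 and 5.82. Its highest mouse after RSG 84 was at 2.40. In all, 270 genes had a log2 ratio of -1 or less in each of the 6 RSG 28 mice, and 129 of these did so in each of the 36 treated IAT mice, whereas 5 genes had a ratio of 1 or more in each RSG 28 mouse. Treatment in general and the content of the pool cannot be told apart for them, since no untreated mouse was hybridised on its own.

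Marker lists of other cell types stood as follows. Among the 21 epithelial and mammary gland markers 1 rose and 10 fell, with a median of -1.19 or -1.83 without mouse 5. Cldn7, Krt19 and Krt8, of epithelial junctions and filaments, were at -4.02, -3.98 and -3.60. Of 26 skeletal muscle markers none rose and 8 fell, or 14 without mouse 5, and the list median ranged from -3.50 in mouse 1 to 0.47 in mouse 5. Myh4 and Atp2a1, of fast muscle, were at -2.55 (-4.56 to -0.20) and -1.51, with the pool channel of Myh4 saturated on 6 of 12 arrays. Of 16 pericyte and smooth muscle markers 1 rose and 11 fell, with a median of -0.50. Cnn1, Myh11 and Tagln, contractile proteins of smooth muscle, fell by 3.50, 1.68 and 1.43, in each of the 6 mice and by similar amounts in the other groups, with Myh11 at -1.73 after RSG 84, -1.76 after RSG 280 and -1.67 after S compound 28.

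**Figure D3:**
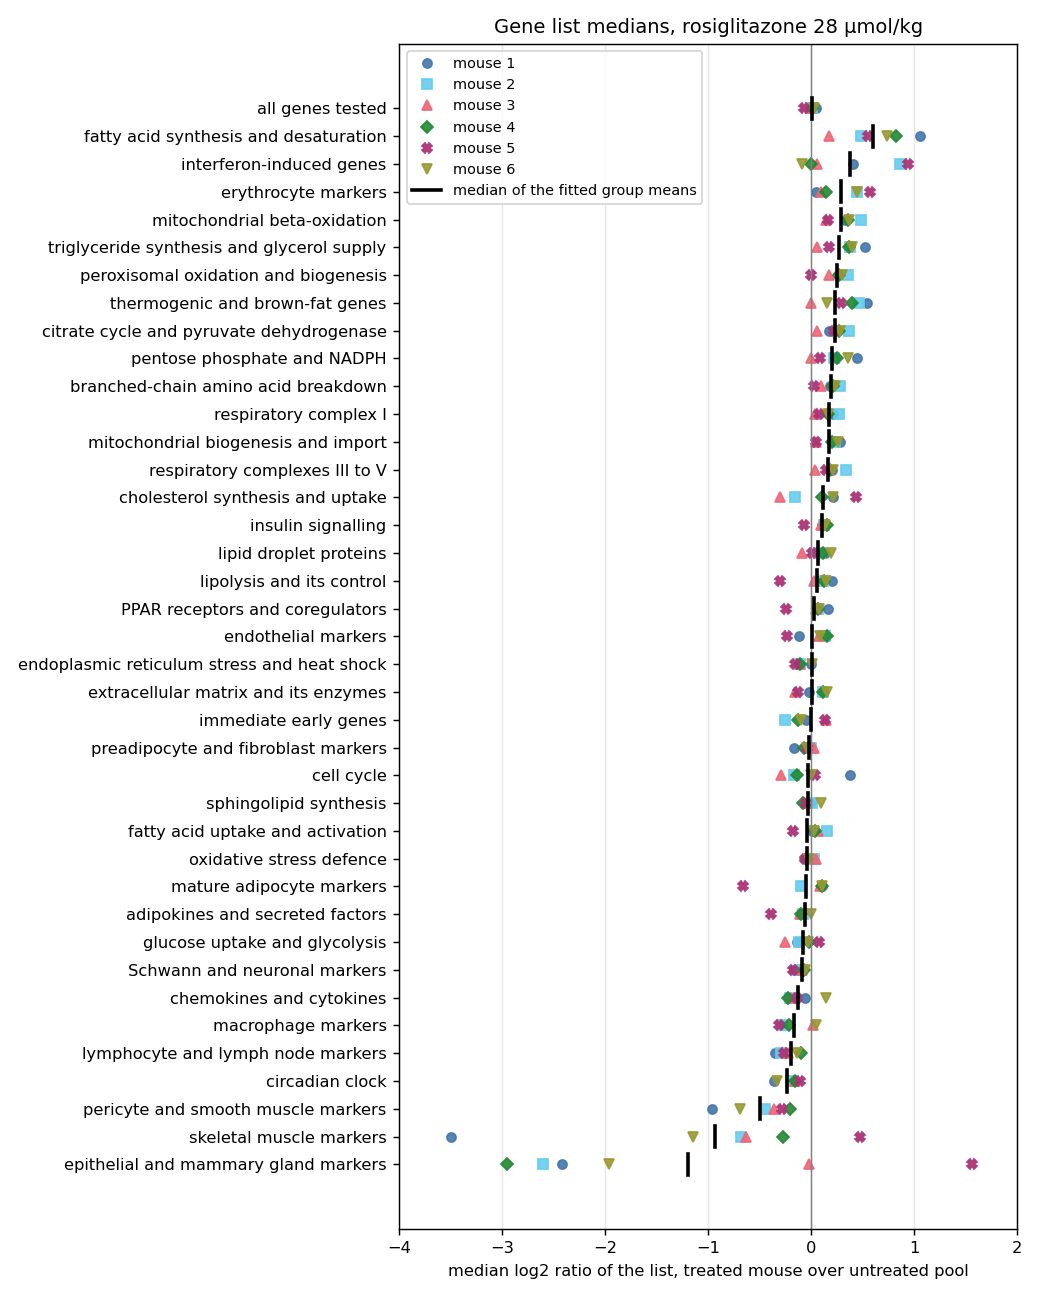
Median log2 ratio over the untreated pool (horizontal axis) of each gene list (rows) in each of the 6 RSG 28 µmol/kg mice (symbols), with a bar at the median of the fitted group means. Fatty acid synthesis is highest with a group median of 0.60, and epithelial markers are lowest at -1.19 with mouse 5 at 1.56.

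Vascular, stromal and immune lists differed from one another at this dose. Of 21 endothelial markers 5 rose and 4 fell, with Kdr, a receptor of vascular endothelial growth factor, at 0.41 and Cldn5, of endothelial junctions, at -0.53. Of 34 genes of the extracellular matrix 8 rose and 9 fell, or 5 and 6 without mouse 5. Col18a1 and Col4a2, of basement membranes, fell by 0.58 and 0.37 and Timp4, a protease inhibitor, by 0.82. Of 20 preadipocyte and fibroblast markers 1 rose and 6 fell, Clec3b at 0.68 and Tcf21, a mesenchymal transcription factor, at -2.25 with its treated channel well above background on 5 of 12 arrays. None of the 21 macrophage markers rose and 2 fell, Cd9 by 1.07 and Cd14 by 0.37, and in mouse 5 Cd9 was at 0.05. Of 22 lymphocyte and lymph node markers 1 rose and 1 fell, and of 32 chemokines and cytokines 6 rose and 6 fell. Cx3cl1, the chemokine fractalkine, fell by 0.64 within a narrow range (-0.77 to -0.53). Il18, an interleukin that epithelia also make, fell by 0.96, with mouse 5 at 0.34 and the others between -1.39 and -0.85. Of 26 interferon-induced genes 10 rose and none fell, or 7 and none without mouse 5, at a median of 0.37 or 0.17. Oas2, Mx1 and Usp18, of antiviral defence and its restraint, were at 0.90, 0.74 and 0.64. The list median was 0.94 in mouse 5, 0.86 in mouse 2 and -0.09 in mouse 6.

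Signalling, secretion and stress genes followed. Of 21 insulin signalling genes 6 rose and 1 fell. Tbc1d4, which holds glucose transporters inside the cell until insulin acts, rose by 1.14 (0.68 to 1.48; adjusted p = 1.9e-10), Gsk3b, a kinase that restrains glycogen synthase, by 0.47, and Akt1 fell by 0.20. Slc2a4, the insulin-responsive glucose transporter, was at 0.07 (adjusted p = 0.48). Of 24 genes of glucose uptake and glycolysis 3 rose and 11 fell, with Pgam1 at 0.38 and Pkm at -0.23 for 2 late steps of the pathway, and Pfkp at -0.17 on its brightest probe while another probe was called higher. From the arrays with the mouse in Cy3 alone, Pkm was at -0.06 and Pfkp at -0.05, neither called. Of 31 adipokines and secreted factors 5 rose and 14 fell, or 6 and 12 without mouse 5. Agt, angiotensinogen, fell by 0.95 (-1.59 to -0.27; adjusted p = 1.7e-06), Rbp4, the retinol carrier, by 0.72 with mouse 5 at -1.39, Igfbp4 by 0.50 and Retn, resistin, by 0.41, whereas Igf1 rose by 0.61. Gstm1 and Gsta3, glutathione transferases, fell by 1.20 and 0.87, and Gclm, of glutathione synthesis, rose by 0.37. The oxidative stress list had 10 of 28 genes higher and 8 lower. Of 26 genes of endoplasmic reticulum stress and heat shock none rose and 11 fell, or 2 and 9 without mouse 5. Pdia4, a folding enzyme, fell by 0.33, and Canx, calnexin, fell by 0.29 on its brightest of 3 probes while another was called higher. Of 19 clock genes 4 rose and 10 fell. Nfil3, a repressor of the clock's output, rose by 0.73, while Per2 and Cry2, of its negative limb, were at -0.70 and -0.34, each with another probe called the other way.

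The next comparison asked how the lowest dose stood against the higher doses of the same compound, in which the shared pool cancels. Against RSG 84, 676 of the 15923 genes were higher after RSG 28 (4.25%) and 1183 lower (7.43%), or 746 and 790 without mouse 5. Against RSG 280, 2194 genes were higher (13.8%) and 2389 lower (15%), or 2457 and 1987 without mouse 5. The lists of oxidation stood out. Of 37 complex I genes 36 were lower at 28 than at 84 µmol/kg and all 37 lower than at 280 µmol/kg, and of 40 genes of complexes III to V 34 and 37 were lower. For beta-oxidation 19 and 20 of 21 genes were lower, and for the citrate cycle and pyruvate dehydrogenase 24 and 25 of 29. Their median log2 ratios to the pool at 28, 84 and 280 µmol/kg were 0.17, 0.47 and 0.59 for complex I, and 0.28, 0.83 and 0.99 for beta-oxidation. Fatty acid synthesis, in contrast, had medians of 0.60, 0.89 and 0.80, and 9 of its 20 genes were lower than at 84 and 8 lower than at 280 µmol/kg, with 1 higher than at 280. Without mouse 5, 5 of these genes were lower than at 84 and 6 lower than at 280 µmol/kg, whereas complex I had 33 and 36 lower and beta-oxidation 19 and 20.

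Several named genes had graded levels as well. Sptlc3, Ucp1 and Cidea were among the genes farthest below RSG 84, and such extremes were named by rule. Their gaps between doses are therefore not independent evidence, and no share of all genes without overlap is given here. Sptlc3 was between 1.27 and 2.83 (median 1.90) at 28 µmol/kg, between 3.05 and 3.94 (median 3.35) at 84 and between 4.00 and 4.59 (median 4.20) at 280. The 3 groups did not overlap. The difference of RSG 28 from RSG 280 was -2.26 (95% interval -2.67 to -1.85; limma adjusted p = 3.2e-09), and from RSG 84 it was -1.46 (adjusted p = 3.7e-05). Ucp1 was between 0.64 and 1.98 at 28, 2.53 and 3.10 at 84, and 2.38 and 3.54 at 280 µmol/kg, so the lowest dose lay apart while the upper doses overlapped. Its difference from RSG 84 was -1.29 (-1.65 to -0.93; adjusted p = 3.7e-05). Cidea had means of 1.56, 2.96 and 3.47, Acadvl of 0.55, 1.25 and 1.57, and Cycs of 0.74, 1.45 and 1.72 at 28, 84 and 280 µmol/kg. Fasn differed less than its spread allowed to be called. Its means were 1.26, 1.85 and 1.52, and the difference from RSG 280 was -0.26 (-0.81 to 0.28; adjusted p = 0.53).

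The coactivators of mitochondrial genes stood higher at higher doses, but only Ppargc1a went from below the pool to above it. Ppargc1b was not called against the pool at 28 µmol/kg, so no crossing is shown for it. In the RSG 28 mice scanned on day 2 alone, Ppargc1a was at -0.34 and not called against the pool (limma adjusted p = 0.10). Ppargc1a was between -0.72 and -0.08 at 28 µmol/kg, -0.11 and 0.48 at 84, and 0.47 and 0.81 at 280. The difference of RSG 28 from RSG 280 was -1.03 (-1.33 to -0.72; adjusted p = 4.8e-06). Ppargc1b had means of -0.07, 0.45 and 0.82, with a difference from RSG 280 of -0.89 (-1.09 to -0.69; adjusted p = 7.3e-08).

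The genes named here as higher at the lowest dose all lay below the pool at 280 µmol/kg. Extremes of the dose contrasts were named by rule, so gaps between doses in such genes are not independent evidence. Pla2g5, a secreted phospholipase, was between -1.08 and -0.54 at 28, -2.49 and -1.64 at 84, and -2.88 and -2.65 at 280 µmol/kg, and the 3 groups did not overlap. Hp, the acute phase protein haptoglobin, had means of -0.59, -1.70 and -2.57 (at 28 µmol/kg saturated on 5 of 12 arrays in the treated and 6 in the pool channel), and Rgs5, a pericyte regulator of G proteins, of -0.53, -1.34 and -1.93. Hkdc1, a hexokinase-like protein, had means of -1.53, -2.63 and -3.82, Dkk3 of -0.36, -1.47 and -2.23, and Saa3, a serum amyloid protein, of -0.06, -1.23 and -1.62. Fgf12 and Tph2 were at 0.12 and 1.05 after RSG 28, against -2.27 and -0.93 after RSG 280 (adjusted p = 2.6e-05 and 0.0011), with Tph2 at -0.36 in mouse 3 and at 1.10 to 1.59 in the other RSG 28 mice. With only RSG 28 and RSG 280 mice in the fit, the difference for Tph2 was not called (limma adjusted p = 0.06). Among lists, 12 of 21 macrophage markers and 21 of 34 matrix genes were higher after RSG 28 than after RSG 280 and none lower.

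**Figure D4:**
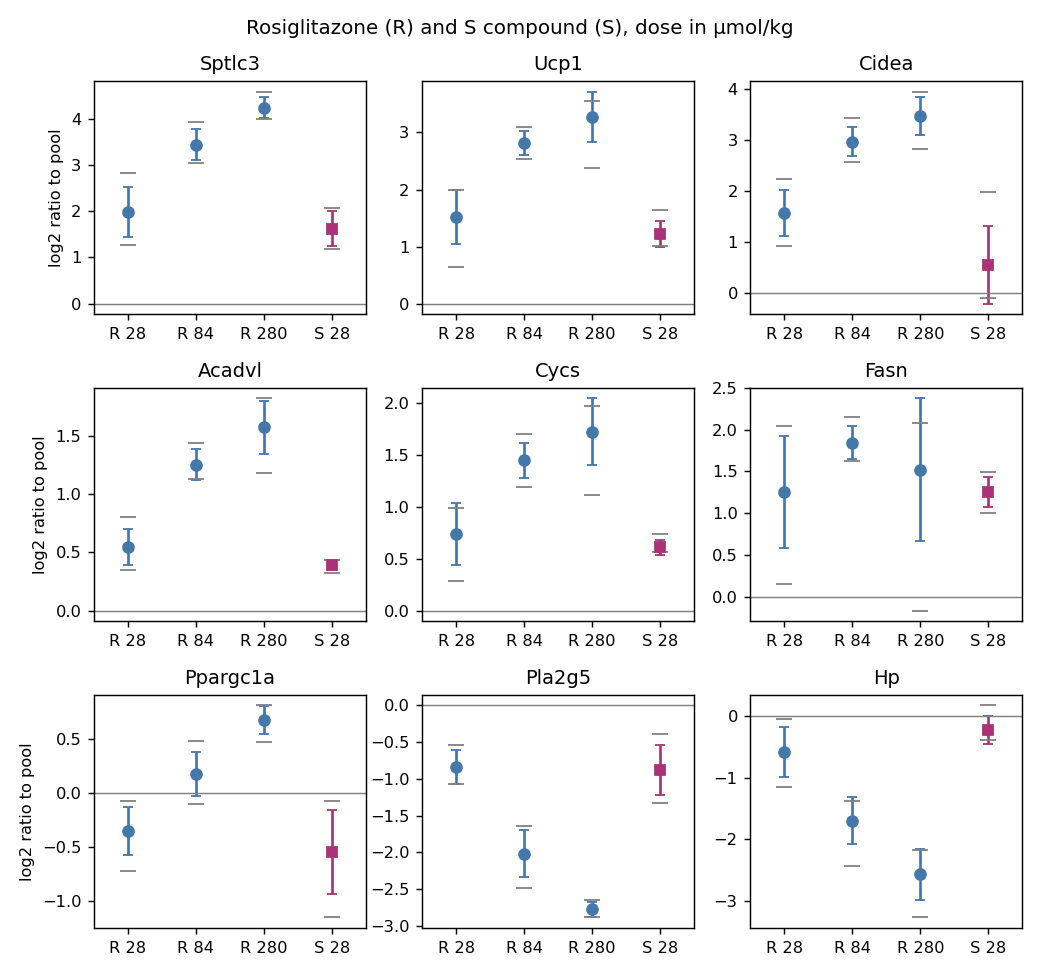
Log2 ratio to the untreated pool (vertical axis) of 9 genes after RSG at 28, 84 and 280 µmol/kg and S compound at 28 µmol/kg (horizontal axis). Points are means of 6 mice, bars are the SD and grey dashes mark the lowest and highest mouse; Sptlc3 has means of 1.98, 3.44 and 4.24 over the RSG doses and 1.63 after S compound.

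Scan days were shared only in part between the doses. RSG 28 mice were scanned on the first and second of 4 days, RSG 84 mice on the second and the third, and RSG 280 mice on the third alone, so that RSG 28 and RSG 280 shared no day. Within the day shared with RSG 84, with 4 mice in each group (mice 3, 4, 5 and 6 of RSG 28), no probe was called in limma and 5682 of 31443 had an unadjusted p under 0.05. The differences there were of similar size to those over all mice, at -1.52 for Sptlc3 against -1.46 over all mice, -1.39 against -1.29 for Ucp1 and -0.75 against -0.71 for Acadvl, each with an adjusted p of 0.13 within the day. In the full fit with scan day as a term 2525 probes differed from RSG 84, against 3151 (10%) without it. Leaving out mouse 3 reduced that count to 1905.

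The last comparison asked whether RSG and S compound differed at the matched dose of 28 µmol/kg, the only pair of compounds compared here. Of 15923 genes 1 was called (0.00628%), and 740 had an unadjusted p under 0.05. In units of probes 2 of 31443 were called in limma (0.00636%), with 1326 at an unadjusted p under 0.05, and between 0 and 8 under the alternatives run. The gene was Cd247, the zeta chain of the T cell receptor. It was between -0.89 and -0.09 (median -0.45) after RSG and between 0.03 and 0.41 (median 0.39) after S compound, without overlap. The difference was -0.80 (-1.08 to -0.52; adjusted p = 0.041), and leaving out mouse 1, 2, 3, 5 or 6 raised the adjusted p to between 0.08 and 0.16. Over genes, the 95% interval reached a median of 0.19 on either side of the measured difference.

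The size of the difference between the compounds varied by gene. Fasn averaged 1.26 after RSG and 1.26 after S compound, a difference of 0.00 with an interval of -0.55 to 0.55. Sptlc3 averaged 1.98 after RSG and 1.63 after S compound (difference 0.35, -0.06 to 0.76), and Ucp1 averaged 1.52 and 1.23 (difference 0.29, -0.06 to 0.65). Cidea was between 0.91 and 2.24 after RSG and between -0.11 and 1.98 after S compound. Its difference of 1.01 had an interval of 0.39 to 1.63 but an adjusted p of 0.81. Rgs5 was between -0.69 and -0.27 after RSG and between -0.19 and 0.38 after S compound. The difference of -0.71 had an upper 95% bound of -0.42 and an adjusted p of 0.15, or 0.022 with scan day as a random block. The groups shared no scan day, so that block cannot separate day from compound. Its fitted correlation was -0.05, and the lower p is not taken as a stronger result. Over lists, fatty acid synthesis had medians of 0.60 after RSG and 0.63 after S compound, beta-oxidation of 0.28 and 0.23, and complex I of 0.17 and 0.10, with no member of any of these lists called.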

How the data were processed

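RNA was extracted with Trizol, amplified, labelled with Cy3 or Cy5 and hybridised on Agilent 4x44K arrays; the authors scanned and quantified them with Agilent Feature Extraction 9.5. The deposited scanner tables give a log10 ratio of red over green per spot, already background-subtracted and dye-normalized by that software, and processed intensity values, which were used for brightness and detection only. The deposited value table holds the authors' log10 ratios and served as an alternative. Ratios were converted to log2, turned to treated over pool from the label order and the dyes in the array names, and averaged over both arrays of a mouse; before turning, the pairs correlated at -0.96 to -0.86, which shows opposite orientations but not which is which, so the sign of every ratio rests on those names and labels. Control and outlier spots were left out. Of 41174 probes, 31443 were tested, those well above background on at least 50% of arrays in either channel of any group. All 36 treated IAT mice entered limma 3.58.1 (R 4.3.3) with a mean per group. Replicates are separate mice; the number of arrays limits the precision. Symbols came from RefSeq accessions for 23366 probes and from the array design for 6684; 11021 probes were unnamed. Named genes were the 15 highest and 15 lowest, the most certain of each list with its strongest exception, the extremes of each contrast and fixed fat genes; the text gives part of them. The members and lists were chosen with earlier results of these data known.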

Additional observations from a re-analysis of the deposited data

Results flagged for a closer look

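In groups of 6 mice, a mouse was listed when its gap to the nearest other mouse as a share of the whole range exceeded Dixon's 95% critical value. Chance alone would list about 1 group in 20. Of the 176 gene and list values examined, 27 were listed, 20 of them for mouse 5 and 5 for mouse 3. All values are log2 ratios to the pool.

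Mouse 5 was the lowest mouse for fat cell genes, with Adipoq at -0.10, Plin1 at -0.73, Fabp4 at -0.94, Lep at -1.11, Lipe at -0.60, Plin4 at -1.35, Cd36 at -0.75, Lpl at -0.70 and Rbp4 at -1.39, and for Col4a2 at -0.75. It was the highest mouse for Sult1b1 at -2.17, Cnn1 at -2.47, Degs2 at -3.86, Slc27a4 at 0.91 and Il18 at 0.34. The medians of 5 lists were also lowest in mouse 5. They were -0.24 for PPAR receptors and coregulators, -0.67 for mature adipocyte markers, -0.31 for lipolysis and its control, -0.071 for insulin signalling and -0.39 for adipokines and secreted factors. Mouse 5 is also the mouse with the skin genes described above, and the part of those in these values was not tested.

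Mouse 3 was the lowest for Gys2 at 0.18, Dio2 at 0.20, Ucp1 at 0.64 and Mx1 at -0.11, and the highest for Gsta3 at -0.10, in each case closest to the pool among the 6 mice. Mouse 2 was the highest for Acaa1b at 0.88, and mouse 6 the lowest for Sval1 at -6.60.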

How the results depend on the processing

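Counts are probes at an adjusted p under 0.05 unless said otherwise. The comparison with the pool called 14539 probes, 9170 when only RSG 28 mice entered the fit, 5127 when only mice scanned on day 2 did (a choice made after seeing the data) and 4039 under the criterion of p under 0.001 and 1.3-fold. Against RSG 84 the count was 3151, or 1229 with only those groups in the fit, 1849 with slide as a random block, 0 within scan day 2 and between 1905 (without mouse 3) and 3905 (without mouse 1) when a mouse was left out. Against RSG 280 it was 7819, or 4487 with only those groups. Against S compound 28 it was 2, with 0 from the value table, without a filter, with only those groups, with slide as a random block, from the arrays with the mouse in Cy3 and with the replicate block, 1 after centring, 8 with scan day as a random block, and 0 to 1 when a mouse was left out. Of the list genes 426 were called, and 176 within scan day 2. Of all 15923 genes 7307 were called, and within scan day 2 947 were called higher and 1361 lower. The causes were not tested, except that fewer mice entered some of these fits.

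Replicate numbers were not taken as pairs, though pairing is not excluded. Same-numbered mice of RSG 28 and RSG 84 correlated at -0.05 to 0.68 in their deviations, and 2 of 6 mice correlated best with their own number. The mean was 0.21, against -0.04 for other numbers. For S compound 28 the means were 0.15 and -0.03, and for RSG 280 -0.002 and -0.0007, with 0 mice best with their own number in either. With the replicate block the comparison with the pool called 15191 probes and that with RSG 84 called 3877, against 14539 and 3151 without it.

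Of 160 gene results recomputed in 3008 values, 2927 kept direction and side of the threshold, 65 lost and 7 gained a call, and 9 reversed. Among the reversals, the log2 ratio turned to -0.018 for Pparg within scan day 2. From the arrays with the mouse in Cy5 it was 0.38 for Fabp4, 0.27 for Lpl, 0.040 for Scd1 and 0.015 for Hp, and from those in Cy3 0.067 for Lipe. In Cy3 the log2 ratio was -0.61 for Fabp4 and -0.38 for Lpl, so both genes were called in opposite directions by dye. With a mouse left out it ranged from -0.18 to 0.050 for Fabp4, -0.11 to 0.088 for Cd36 and -0.10 to 0.073 for Lpl, each positive only without mouse 5. Of 780 list medians recomputed, 8 moved by at least 1 SD of the mouse medians. Dim probes limit what the ratios can show.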
